A study of Saccharomyces cerevisiae with 12 samples.

Results

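The transcripts described here encode yeast translation initiation, elongation and termination factors, cytosolic aminoacyl-tRNA synthetases and the tRNA methyltransferase Gcd10–Gcd14. The 55 genes were taken by symbol from the platform's annotation, and 53 of them had a probe set, out of 5449 yeast genes measured. TIF1 and EFT1 had no annotated probe set of their own. Each is a near-identical copy of a listed gene, TIF2 and EFT2, whose probe sets carry Affymetrix's suffix for probes shared between similar sequences. The values under TIF2 and EFT2 may therefore hold signal of both copies.

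The cells were Saccharomyces cerevisiae BY4741, a laboratory haploid (mating type a), carrying the plasmid p416-Tefmut2 with either SPT15 or its mutant form spt15-300. SPT15 encodes the TATA-binding protein, and the labels name no deletion of the chromosomal gene. The strains, called the wild type and the mutant, grew in YSC medium without uracil that held 0% ethanol and 20 g/L glucose, or 5% ethanol and 60 g/L glucose, and the second is called the ethanol medium. Since the glucose level differed along with the ethanol level, their effects cannot be told apart. All cultures grew at 30 °C in closed shaken tubes to an optical density near 0.4. The design gives 3 biological replicates for each of the 4 groups, but 1 array, mutant replicate 2 with ethanol, is titled an outlier, so that group rests on 2 arrays here.

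Initiation factors bring the initiator tRNA, the small ribosomal subunit and the capped mRNA together and find the start codon. Elongation factors deliver the charged tRNAs and move the ribosome along the message, and release factors free the finished protein at the stop codon. The synthetases charge each tRNA with its amino acid. In growing yeast the transcripts of these proteins are abundant, and the genes of the translation machinery are known to be tuned to growth rate and stress.

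RNA was measured on Affymetrix Yeast Genome 2.0 arrays, and all values below are log2 intensities or differences of log2 intensities, 1 probe set per gene. Correlations between the 11 arrays ran from 0.943 to 0.999, and those within a group were at least 0.993. Array medians lay between 10.46 and 10.52. RNA quality was read from 8 control genes, among them SPT15, the gene carried by the plasmid, and URA3 of uracil synthesis. The measure was the median over the 8 of the level at the 3′ end minus that at the 5′ end. Without ethanol this difference was 0.310 to 0.359 for wild type arrays and 0.240 to 0.266 for mutant arrays. With ethanol it was 0.361 to 0.435 and 0.379 to 0.400. The a-specific genes STE2, MFA1 and BAR1 had group means of 9.79 to 13.13, and the alpha-specific STE3 and MF(ALPHA)1 of 7.91 to 8.51. The deposited values came from RMA, which usually aligns arrays to one another, but its settings are not given. A change shared by all transcripts may therefore not show. Fewer expressing cells and less RNA per cell cannot be told apart in whole cultures. Arrays give no read depth, and the number of arrays limits the precision.

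In the ethanol medium most of these transcripts were lower, in both strains. A gene is said to have risen or fallen where limma's Benjamini-Hochberg adjusted p over all 5449 genes was under 0.05. In the wild type 41 of the 53 fell and 1 rose, against 29.0% of all genes called lower and 31.7% called higher. In the mutant 37 fell and 2 rose, against 28.7% of all genes called lower and 33.8% called higher. The median difference over the 53 was -0.28 in the wild type and -0.25 in mutant cells, where the medians over all genes were 0.01 and 0.02.

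The size of the decrease was moderate and similar from array to array. The median level of the 53 transcripts was 12.69, 12.69 and 12.71 on the wild type arrays without ethanol and 12.64, 12.60 and 12.57 on those of the mutant. With ethanol it was 12.45, 12.38 and 12.35 for the wild type and 12.40 and 12.29 for the mutant. Every array of the ethanol medium was below every array of the other medium. Gene by gene, all wild type arrays of the ethanol medium were below those without ethanol for 46 of the 53, against 32.5% of all genes, and all mutant arrays for 41, against 35.8%. The 3′ to 5′ difference was higher in the ethanol medium in both strains, and its part in these decreases was not tested.

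**Figure D1:**
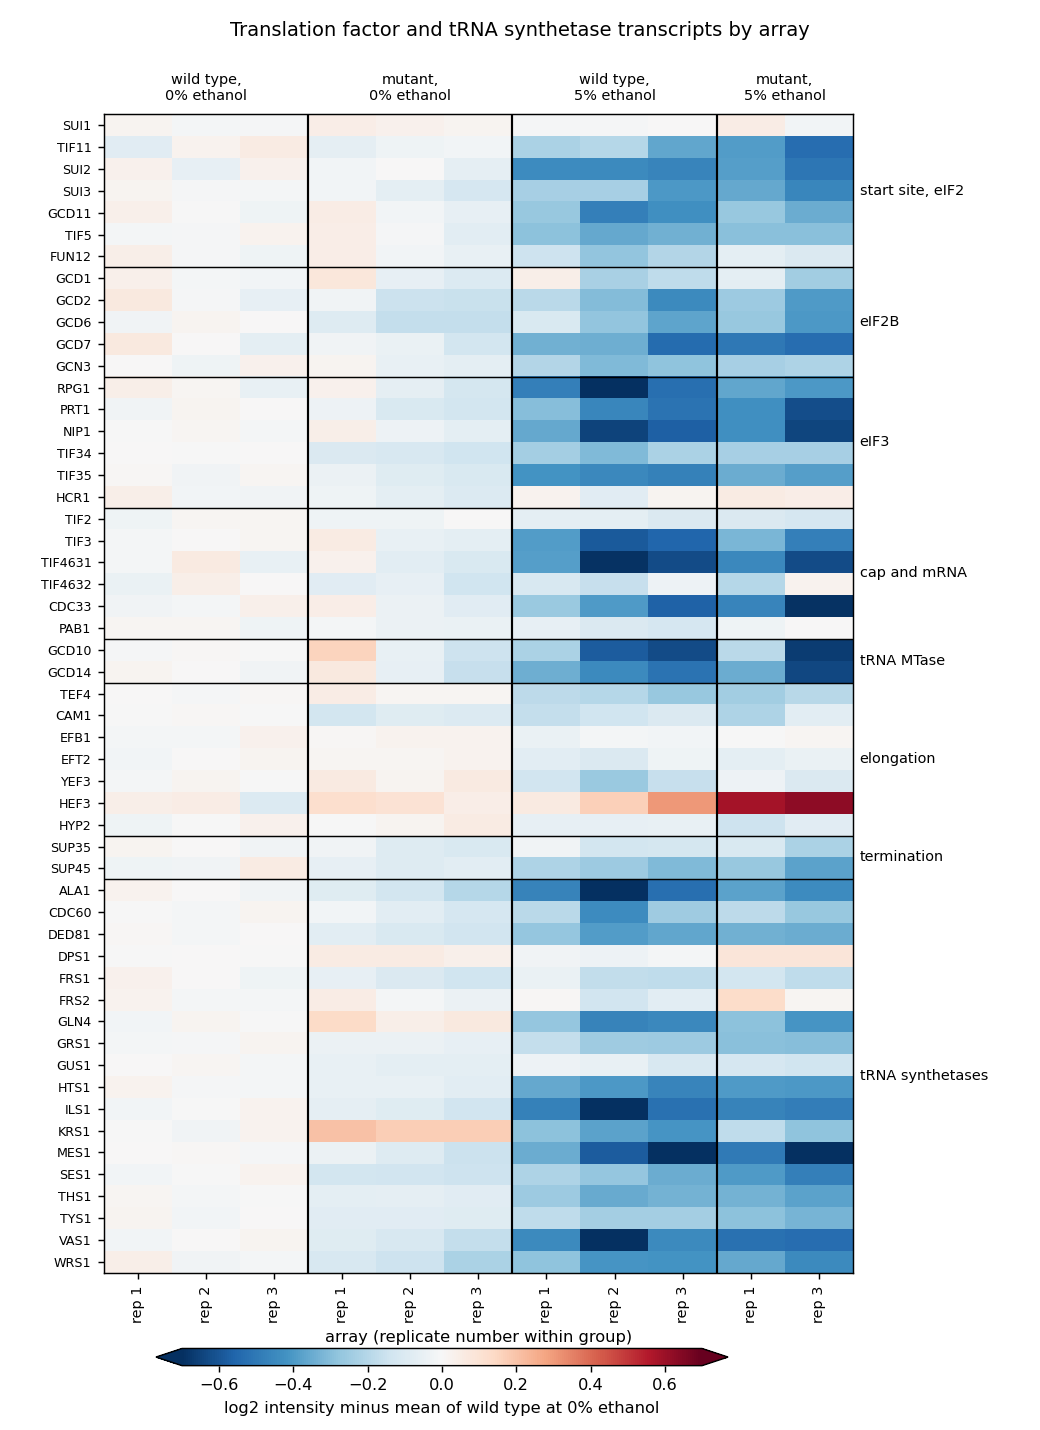
Levels of the 53 transcripts on the 11 arrays, as log2 intensity minus the mean of the wild type without ethanol, grouped by role from top to bottom and by strain and medium from left to right. Blue, lower values fill most rows of the ethanol medium, while HEF3 is the red row and SUI1, HCR1, EFB1 and DPS1 stay pale.

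With the array titled an outlier brought back unweighted, 1 member was called in the wild type and 8 in mutant cells. Leaving out any single one of the 11 arrays gave 38 to 43 calls in the wild type and 31 to 39 in the mutant. Wild type calls that ended there or under another scaling or fit were TIF2 (adjusted p up to 0.258), PAB1 (up to 0.11), FRS1 (up to 0.079), CAM1 (0.0947 with array medians aligned) and HEF3. Mutant calls were also lost under other alternatives, of which there were 20, counting all 12 arrays and each array left out. TIF2 was lost in 15, YEF3 in 11, GCD6 and GCD10 in 9 each, HCR1 in 8, and GCD2 and TIF34 in 5 each. Leaving out mutant replicate 3 with ethanol ended 8 mutant calls, GCD2, GCD6, TIF34, HCR1, TIF2, GCD10, YEF3 and ALA1, with adjusted p from 0.0798 (TIF34) to 0.37 (GCD10), and leaving out mutant replicate 1 with ethanol ended HYP2 (0.0785).

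Among the factors that select the start codon and carry the initiator tRNA, 6 of 7 fell in wild type cells and 5 in the mutant. These are 85.7% and 71.4%, beside 29.0% and 28.7% of all genes. All 3 subunits of eIF2, the GTPase that brings the initiator tRNA to the ribosome, fell in both strains. SUI2, its alpha subunit and the site of the inhibitory phosphorylation by Gcn2, read 12.43, 12.34 and 12.43 without ethanol and 11.96, 11.95 and 11.94 with it in the wild type. In the mutant it read 12.38, 12.40 and 12.33 against 12.01 and 11.90. The wild type decrease was -0.45 (adjusted p = 1.38e-05) and the mutant's -0.42.

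SUI3 (beta) and GCD11 (gamma) had differences of -0.29 and -0.39 in the wild type and of -0.34 and -0.30 in the mutant. TIF11 (eIF1A) fell by 0.26 in the wild type and by 0.42 in the mutant, and TIF5 (eIF5, which triggers GTP hydrolysis by eIF2) by 0.33 and 0.28. SUI1, which encodes the start codon factor eIF1, differed by -0.01 in each strain and did not pass the test. FUN12 (eIF5B, which joins the ribosomal subunits) fell in the wild type, by 0.21 (adjusted p = 0.00208), and had a difference of -0.08 in the mutant (adjusted p = 0.186).

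The guanine nucleotide exchange factor of eIF2, eIF2B, is made of 5 subunits, and 4 of their transcripts fell in each strain. GCD7 (beta) had the lowest difference of the 5, -0.41 in the wild type and -0.45 in mutant cells. GCD2 (delta), GCN3 (alpha) and the catalytic GCD6 (epsilon) fell by 0.25 to 0.31 in the wild type and by 0.19 to 0.22 in the mutant. The mutant calls of GCD6 and GCD2 were lost in 9 and 5 of 20 alternatives. GCD1 (gamma) differed by -0.12 in the wild type (adjusted p = 0.192) and -0.13 in the mutant, neither past the threshold.

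Transcripts of eIF3, the scaffold that binds the small subunit and recruits the other factors, gave a median difference of -0.43 for the wild type and -0.31 for the mutant. The 5 core subunits RPG1, PRT1, NIP1, TIF34 and TIF35 fell in both strains. RPG1, the a subunit, had the lowest wild type difference of all 53 genes. It read 12.32, 12.29 and 12.23 in the wild type without ethanol and 11.80, 11.51 and 11.75 with it. The mutant arrays read 12.31, 12.22 and 12.16 without ethanol and 11.92 and 11.88 with it. The media did not overlap in either strain, with differences of -0.59 (adjusted p = 8.29e-05) and -0.33 (adjusted p = 0.00567).

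NIP1, the c subunit, fell from 12.55, 12.56 and 12.53 to 12.19, 11.90 and 11.98 in the wild type and from 12.59, 12.51 and 12.48 to 12.12 and 11.90 in the mutant. Its mutant difference of -0.51 (adjusted p = 0.000665) was among the 4 lowest there. HCR1, which encodes the loosely bound j subunit, did not fall in either strain. It read 12.71, 12.65 and 12.65 without ethanol and 12.69, 12.59 and 12.69 with it in the wild type, overlapping, with a difference of -0.01 (adjusted p = 0.808). In the mutant it read 12.64, 12.60 and 12.57 against 12.73 and 12.72, a rise of 0.12 (adjusted p = 0.0396). The difference between the strains in this response was not called (0.13, adjusted p = 0.26). The mutant call of HCR1 was lost in 8 of 20 alternatives.

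Of the 6 measured genes that act on the cap and the mRNA, 5 fell in the wild type and 4 in mutant cells. The shares were 83.3% and 66.7%, beside 29.0% and 28.7% of all genes. CDC33, the cap-binding protein eIF4E, had the lowest mutant difference of the 53. Its mutant arrays read 13.02, 12.93 and 12.89 without ethanol and 12.51 and 12.28 with it, a fall of 0.55 (adjusted p = 0.000592). The wild type arrays read 12.95, 12.96 and 13.01 against 12.71, 12.57 and 12.40, a fall of 0.41 (adjusted p = 0.00162).

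TIF3 (eIF4B, a cofactor of the helicase eIF4A) fell by 0.51 in wild type cells and by 0.38 in the mutant. TIF2, the helicase eIF4A, read 13.52, 13.57 and 13.56 without ethanol and 13.48, 13.48 and 13.45 with it in the wild type. In the mutant it read 13.52, 13.52 and 13.55 against 13.45 and 13.43. The media did not overlap in either strain, but the differences were -0.08 (adjusted p = 0.049) and -0.09 (adjusted p = 0.0445). The calls of TIF2 were lost in 16 of 20 alternatives in the wild type and in 15 in the mutant. PAB1, the poly(A)-binding protein, differed by -0.09 in the wild type (adjusted p = 0.0264) and by 0.02 in the mutant, where it did not pass the test.

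The scaffold eIF4G, which holds the cap-binding protein and the helicase together, is encoded by a pair of paralogs whose transcripts did not respond alike. TIF4631 read 11.90, 11.98 and 11.86 without ethanol and 11.53, 11.22 and 11.29 with it in the wild type. It read 11.94, 11.84 and 11.81 against 11.46 and 11.29 in the mutant. These were falls of 0.57 (adjusted p = 0.000228) and 0.49 (adjusted p = 0.00122), with no overlap.

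TIF4632 read 10.62, 10.70 and 10.66 against 10.55, 10.50 and 10.62 in the wild type and 10.58, 10.60 and 10.52 against 10.46 and 10.68 in the mutant. Its arrays overlapped in both strains, and neither difference passed the test (-0.10, adjusted p = 0.154, and 0.00, adjusted p = 0.972). The medium difference of TIF4631 was below that of TIF4632 by 0.46 in the wild type and by 0.49 in the mutant. An exact permutation test of this contrast, with the media exchanged within each strain, gave p = 0.005, the smallest of its 200 arrangements, and 0.0075 adjusted over the 6 pairs compared.

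**Figure D2:**
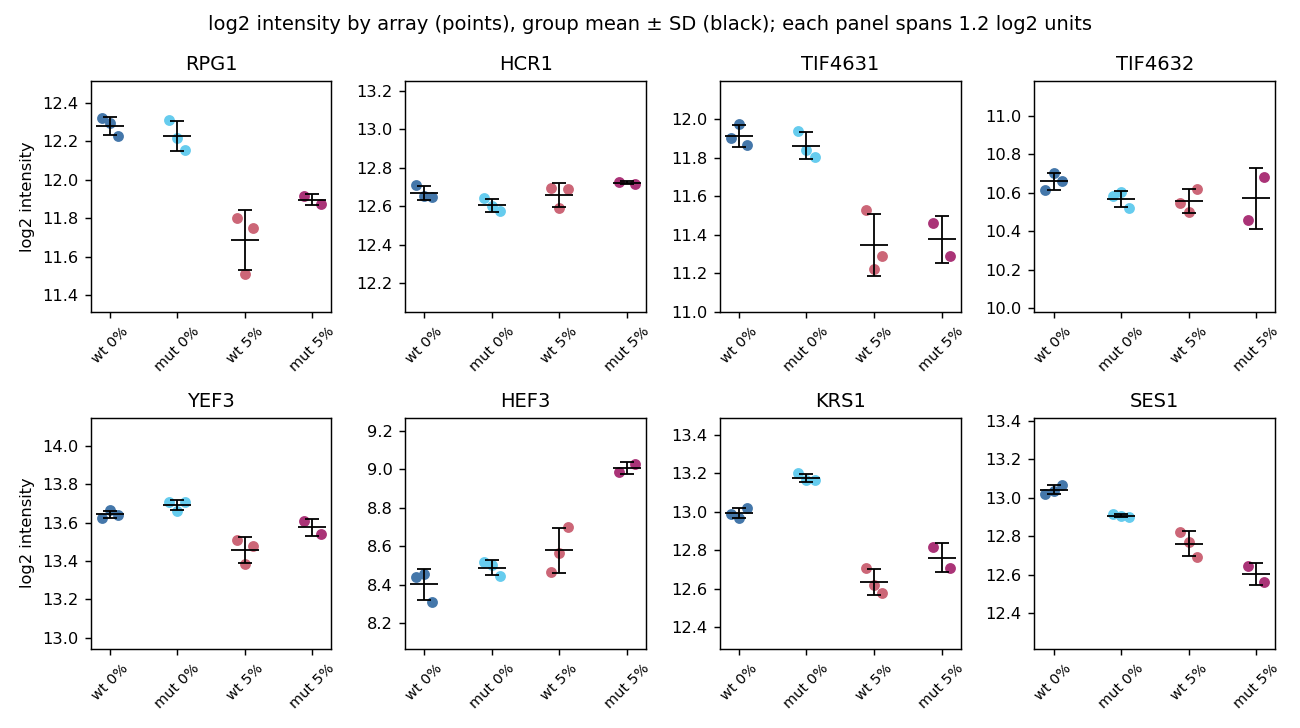
Log2 intensity of 8 transcripts on each array (points), with the group mean and SD in black, where each panel spans the same range. RPG1 and TIF4631 are lower in both 5% ethanol groups, their partners HCR1 and TIF4632 are near level, HEF3 is highest in the mutant at 5% ethanol, KRS1 is higher and SES1 lower in the mutant than in the wild type at 0% ethanol.

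GCD10 and GCD14 encode the subunits of the tRNA methyltransferase that modifies the initiator tRNA among others, and both fell in each strain. GCD10 read 11.11, 11.13 and 11.12 against 10.89, 10.53 and 10.49 in the wild type and 11.27, 11.06 and 10.97 against 10.93 and 10.45 in the mutant. GCD14 read 11.20, 11.18 and 11.15 against 10.84, 10.73 and 10.66 in the wild type and 11.24, 11.12 and 11.02 against 10.83 and 10.54 in the mutant. Each array of the ethanol medium was the lower for both genes, although the arrays of GCD10 spread widely there. The differences were -0.48 and -0.41 for GCD10 (adjusted p = 0.012 and 0.0371) and -0.43 and -0.44 for GCD14. The mutant call of GCD10 was lost in 9 of 20 alternatives. The contrast between both genes was -0.01 on average over the strains (exact permutation p = 0.92).

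Of the 7 measured elongation factor transcripts, 3 fell (42.9%) and 1 rose (14.3%) in each strain. Over all genes 29.0% were called lower and 31.7% higher in the wild type, and 28.7% and 33.8% in the mutant. With 7 genes these shares are not read as different from those of all genes. The median difference was -0.07 in the wild type and -0.08 in mutant cells. YEF3, the fungal elongation factor eEF3, which helps empty tRNAs leave the ribosome, read 13.63, 13.66 and 13.64 without ethanol and 13.51, 13.38 and 13.48 with it in the wild type. In the mutant it read 13.71, 13.66 and 13.70 against 13.61 and 13.54. The falls of 0.18 (adjusted p = 0.0028) and 0.12 (adjusted p = 0.0453) were small and without overlap. The mutant call of YEF3 was lost in 11 of 20 alternatives.

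HEF3, the paralog of YEF3, was the member that rose most. Its wild type arrays read 8.44, 8.45 and 8.31 without ethanol and 8.47, 8.57 and 8.70 with it, and its mutant arrays 8.52, 8.50 and 8.45 against 8.99 and 9.03. The media did not overlap in either strain. The rises were 0.18 (adjusted p = 0.0305) in the wild type and 0.52 ± 0.07 (SE, adjusted p = 0.000183) in the mutant. The wild type call was lost when wild type replicate 3 of the medium without ethanol (adjusted p = 0.113), or replicate 2 (0.0572) or 3 (0.102) of the ethanol medium, was left out, and under a repeated quantile normalization (adjusted p = 0.991). The medium difference of YEF3 was below that of HEF3 by 0.36 for the wild type and 0.63 for the mutant (exact permutation p = 0.005, adjusted 0.0075).

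The gamma subunit of the exchange factor eEF1B is also encoded by a pair of genes. TEF4 read 13.23, 13.22 and 13.24 against 13.05, 13.03 and 12.96 in the wild type and 13.28, 13.25 and 13.24 against 12.98 and 13.03 in the mutant, falls of 0.21 and 0.25. CAM1 read 12.83, 12.84 and 12.82 against 12.66, 12.69 and 12.73 in the wild type and 12.70, 12.75 and 12.73 against 12.61 and 12.75 in the mutant. CAM1 fell in the wild type by 0.14 (adjusted p = 0.015), and its mutant arrays overlapped (-0.04, adjusted p = 0.416). The mean contrast of TEF4 and CAM1 over the strains was -0.14 (exact permutation p = 0.01, adjusted 0.012).

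EFB1, the catalytic subunit of eEF1B, differed by -0.03 and -0.01 and was not called. EFT2, the translocase eEF2, read 13.68, 13.70 and 13.72 against 13.63, 13.60 and 13.67 in the wild type and 13.72, 13.72 and 13.73 against 13.63 and 13.65 in the mutant. Its arrays did not overlap between the media, but the differences of -0.07 (adjusted p = 0.0855) and -0.08 (adjusted p = 0.0821) did not pass the test. HYP2 (eIF5A, which helps ribosomes through difficult peptide bonds) had differences of -0.06 in the wild type (adjusted p = 0.172) and of -0.14 in the mutant (adjusted p = 0.0104), where it fell.

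Brightness went along with this split. The 12 members at or above the 95th percentile of all genes by mean level were SUI1, TIF2, PAB1, TEF4, EFB1, EFT2, YEF3, HYP2, DED81, DPS1, GUS1 and THS1. Among them DED81 and THS1 had differences of -0.34 and -0.31 in the wild type and of -0.24 and -0.28 in the mutant. These 12 members held 6 of the lower calls in each strain. The other 41 held 35 in the wild type and 31 in mutant cells. Over all genes 29.0% and 28.7% were called lower. EFB1, EFT2 and YEF3 lay above the brightest 1% level of at least 1 array, where array signals can be compressed, and the part of brightness in their small differences was not tested. HEF3, in contrast, was brighter than 10.02% of genes.

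The release factors also differed from each other. SUP45 (eRF1, which reads the stop codon) read 12.63, 12.64 and 12.72 against 12.44, 12.41 and 12.35 in the wild type and 12.61, 12.57 and 12.59 against 12.40 and 12.29 in the mutant. It fell by 0.26 (adjusted p = 0.0005) and 0.25. SUP35 (its GTPase partner eRF3, and the protein of the [PSI+] prion) read 12.54, 12.52 and 12.49 against 12.50, 12.39 and 12.39 in the wild type and 12.50, 12.43 and 12.41 against 12.41 and 12.30 in the mutant. The SUP35 arrays overlapped in the wild type and touched in the mutant, and its differences of -0.09 in each strain were not called (adjusted p = 0.1 and 0.14). The contrast of SUP35 with SUP45 was 0.17 for the wild type and 0.16 for the mutant (exact permutation p = 0.005, adjusted 0.0075).

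**Figure D3:**
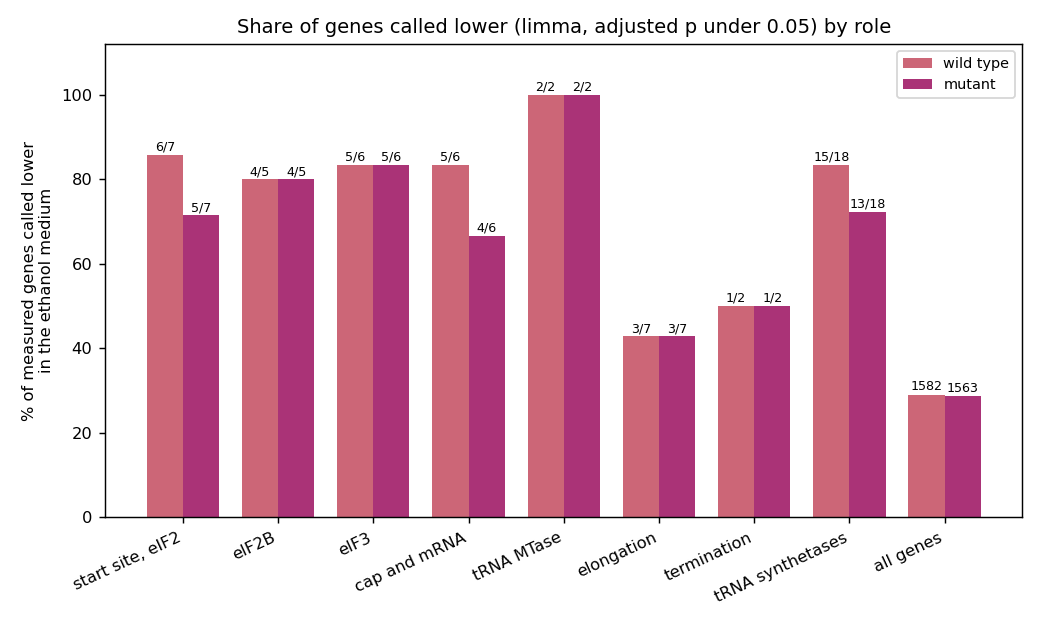
Share of measured genes called lower in the ethanol medium by role, in the wild type (left bars) and the mutant (right bars), with counts above the bars and all 5449 genes at the right. The share is 83.3% and 72.2% for the synthetases and 42.9% in both strains for the elongation factors, beside 29.0% and 28.7% of all genes.

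The set held 18 synthetase genes. The prolyl enzyme YHR020W and the arginyl enzyme YDR341C are not among them but in another list below. The cysteinyl enzyme CRS1 of that list was not measured. Of the 18, 15 fell in the wild type (83.3%) and 13 in mutant cells (72.2%), beside 29.0% and 28.7% of all genes. The median differences were -0.33 and -0.26. In the wild type the lowest were ALA1 and ILS1, which charge alanine and isoleucine. ALA1 read 12.79, 12.77 and 12.75 without ethanol and 12.30, 11.98 and 12.24 with it in the wild type. It read 12.69, 12.64 and 12.57 against 12.40 and 12.33 in the mutant. The media did not overlap, with differences of -0.59 ± 0.07 (SE, adjusted p = 9.04e-05) and -0.27 ± 0.08 (SE, adjusted p = 0.0162). Without mutant replicate 3 with ethanol the second was no longer called (adjusted p = 0.101).

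ILS1 read 12.69, 12.70 and 12.73 against 12.23, 11.93 and 12.18 in the wild type and 12.64, 12.62 and 12.57 against 12.24 and 12.22 in the mutant. Its falls were 0.59 (adjusted p = 5.24e-05) and 0.38 (adjusted p = 0.0017). MES1, the methionyl-tRNA synthetase, read 12.72, 12.73 and 12.72 against 12.38, 12.14 and 12.004 in the wild type and 12.68, 12.63 and 12.57 against 12.23 and 12.03 in the mutant. The falls of MES1 were 0.55 (adjusted p = 0.000414) and 0.50 (adjusted p = 0.00149), again without overlap.

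The valyl (VAS1), histidyl (HTS1), glutaminyl (GLN4), tryptophanyl (WRS1), lysyl (KRS1), asparaginyl (DED81), threonyl (THS1), seryl (SES1), glycyl (GRS1) and tyrosyl (TYS1) enzymes also fell in both strains. Their differences ran from -0.53 to -0.22 in the wild type and from -0.43 to -0.23 in the mutant. CDC60, the leucyl enzyme, fell in the wild type by 0.29 and had a difference of -0.15 in the mutant (adjusted p = 0.0735). The glutamyl (GUS1) and aspartyl (DPS1) enzymes were called in neither strain, with differences of -0.07 in each strain for GUS1 and of -0.02 and 0.03 for DPS1.

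Phenylalanyl-tRNA synthetase is built from FRS1 (beta) and FRS2 (alpha). FRS1 read 12.97, 12.94 and 12.90 against 12.89, 12.76 and 12.76 in the wild type and 12.88, 12.83 and 12.80 against 12.81 and 12.76 in the mutant. FRS2 read 12.54, 12.50 and 12.50 against 12.53, 12.38 and 12.44 in the wild type and 12.57, 12.50 and 12.47 against 12.65 and 12.53 in the mutant. FRS1 fell in the wild type, by 0.13 (adjusted p = 0.0235), and FRS2, whose arrays overlapped in each strain, had differences of -0.07 (adjusted p = 0.249) and 0.07 (adjusted p = 0.245). The contrast of FRS1 with FRS2 was small, -0.10 on average over the strains (exact permutation p = 0.005, adjusted 0.0075).

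Most genes that fell did so in both strains. The shared genes numbered 36, which is 87.8% of the wild type's list and 97.3% of the mutant's. Over all genes the shared lower calls made up 77.6% and 78.5% of the lists. The wild type and mutant differences correlated at 0.870 (Pearson) over the 53 genes and at 0.905 over all genes. These are correlations across genes, which are not independent replicates, and the strains share no array.

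**Figure D4:**
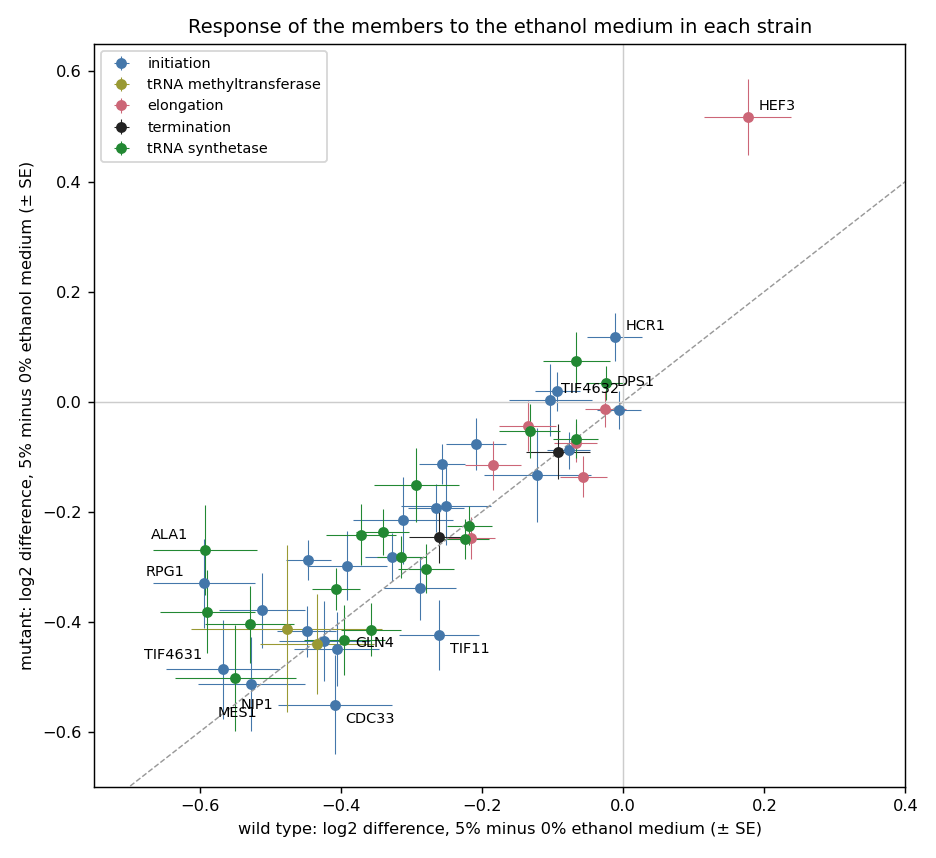
Log2 difference between the ethanol medium and the other medium for the 53 transcripts, wild type on the horizontal and mutant on the vertical axis, each with its SE and coloured by role. The dashed line marks equal differences. Most points lie in the lower left, and HEF3 (0.18 and 0.52) is at the upper right.

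Whether the mutant responded differently to the medium was asked with the interaction, the mutant's medium difference minus that of the wild type. None of the 53 genes passed limma's threshold, where 0.385% of all genes were called higher and 0.826% lower, and 6 had an unadjusted p under 0.05, against 19.9% of all genes. The 6 were HEF3 (0.34, adjusted p = 0.109), ALA1 (0.32, adjusted p = 0.173), RPG1 (0.26, adjusted p = 0.228), TIF35 (0.16, adjusted p = 0.141), TIF34 (0.14, adjusted p = 0.172) and PAB1 (0.11, adjusted p = 0.232). All 6 were above 0, as were 35 of the 53 and 53.2% of all genes. The 95% intervals of the 53 interactions lay between -0.41 and 0.57, the lowest bound from CDC33 and the highest from ALA1. Leaving out replicate 3 of the wild type in the ethanol medium made HEF3 pass (adjusted p = 0.0256). Array weights on all 12 arrays made HEF3 and ALA1 pass (adjusted p = 0.0178 and 0.0316).

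Of the 53 transcripts, 3 differed between the strains in each medium. The count without ethanol depended on the fit: 21 with array weights, 9 in a fit of only the arrays compared and 0 with all 12 arrays unweighted. The weights were uneven. Without ethanol replicate 2 of the mutant had 10.6 and replicate 2 of the wild type 6.38, and every other array had at most 2.72. The shares of all genes called under these fits are not given here, so these counts are not read as particular to the members. Without ethanol 1 of the 53 transcripts was higher and 2 were lower in the mutant, against 8.26% and 8.07% of all genes. At an unadjusted p under 0.05 there were 10, against 30.5% of all genes. The median difference was -0.05, where that of all genes was -0.03, and 43 of the 53 differences were below 0, against 61.2% of all genes. All mutant arrays were below all wild type arrays for 23 of the 53, against 26.7% of all genes, and above them for 4, against 15.9%. The 3′ to 5′ difference of the control genes was lower on every mutant array without ethanol than on any wild type array, and its part in these differences was not tested. The control genes include SPT15, whose form differs between the plasmids.

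The transcript that was higher was KRS1, the lysyl-tRNA synthetase. It read 12.99, 12.97 and 13.02 for the wild type and 13.20, 13.17 and 13.16 for the mutant, which gives 0.18 ± 0.04 (SE, adjusted p = 0.0177). With ethanol KRS1 read 12.71, 12.62 and 12.58 against 12.82 and 12.71, without overlap before rounding, and the difference of 0.13 did not pass (adjusted p = 0.107). SES1, the seryl-tRNA synthetase, was lower in the mutant in each medium, with arrays of 13.02, 13.04 and 13.07 against 12.92, 12.91 and 12.90 without ethanol. With ethanol SES1 read 12.82, 12.77 and 12.69 against 12.64 and 12.56. The differences were -0.13 (adjusted p = 0.0479) and -0.16 (adjusted p = 0.049).

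TIF34, the i subunit of eIF3, read 12.70, 12.69 and 12.69 in the wild type and 12.59, 12.58 and 12.55 in mutant cells without ethanol, a difference of -0.12 (adjusted p = 0.0364). With ethanol the strains overlapped for TIF34, with arrays of 12.45, 12.38 and 12.47 against 12.46 and 12.46. None of the 53 was called when replicate 1 or 2 of the wild type, or replicate 1, 2 or 3 of the mutant, of this medium was left out, and 1 was called without replicate 3 of the wild type. Leaving out wild type replicate 1 with ethanol, which shares the estimate of the spread, gave 5. With array medians aligned KRS1 was higher and WRS1, the tryptophanyl enzyme, lower (-0.14, adjusted p = 0.0452), while TIF34 (0.0946) and SES1 (0.0667) were no longer called.

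In the ethanol medium 2 of the 53 were higher and 1 lower in the mutant, against 5.73% and 5.98% of all genes. At an unadjusted p under 0.05 there were 11, against 31.3% of all genes, and the median difference was 0.00, where that of all genes was -0.01. HEF3 was 1.35-fold higher in the mutant, a log2 difference of 0.43 ± 0.07 (SE, adjusted p = 0.00844). Both mutant arrays, 8.99 and 9.03, were above the highest wild type array, 8.70. Without ethanol the strains overlapped for HEF3 (0.09, adjusted p = 0.384).

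DPS1, the aspartyl-tRNA synthetase, read 13.01, 13.00 and 13.02 for the wild type and 13.12 and 13.12 for the mutant, a difference of 0.11 (adjusted p = 0.047). Without ethanol its arrays read 13.04, 13.04 and 13.03 against 13.10, 13.10 and 13.07. The third call was SES1. Leaving out replicate 3 of the mutant ended all 3 calls, and HEF3 then had an adjusted p of 0.0674. A fit of only the arrays compared gave HEF3 an adjusted p of 0.15. Leaving out replicate 3 of the wild type in this medium gave 6 calls, and leaving out any other single array gave 1. The calls of DPS1 and SES1 were lost in 15 and 14 of 20 alternatives. With array medians aligned HEF3 was higher and SES1 lower, and DPS1 was not called (0.0662).

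**Figure D5:**
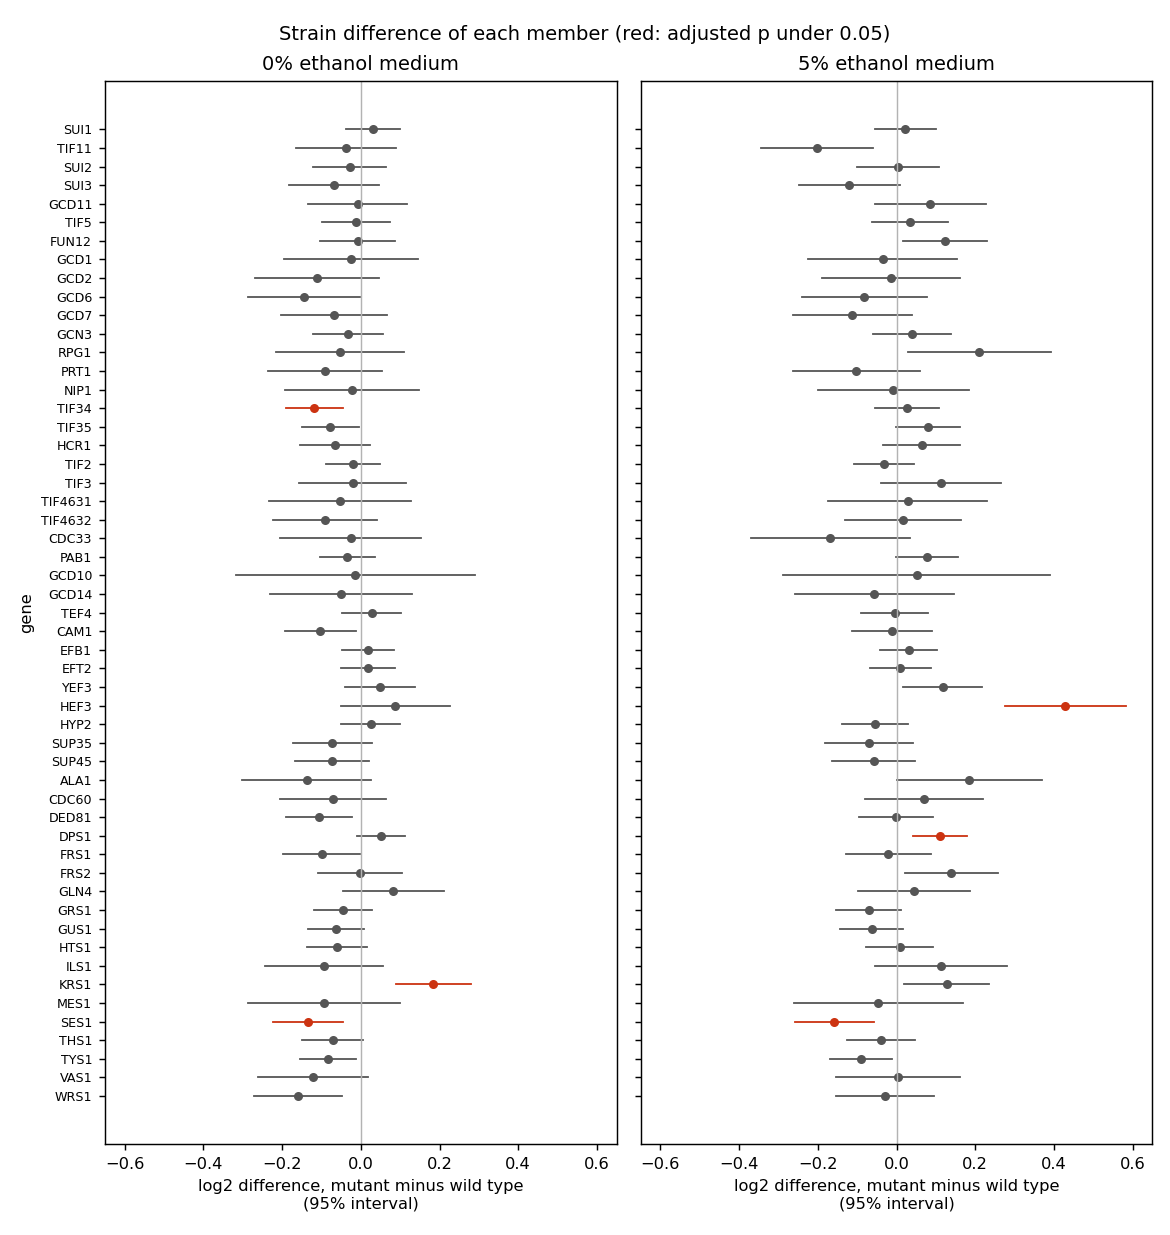
Log2 difference between mutant and wild type for each of the 53 transcripts without ethanol (left) and in the ethanol medium (right), with 95% intervals, in red where the adjusted p was under 0.05. KRS1 (0.18), TIF34 (-0.12) and SES1 (-0.13) are red at the left, and HEF3 (0.43), DPS1 (0.11) and SES1 (-0.16) at the right.

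Other genes of protein synthesis, in 4 lists with 109 measured members, were set beside the 53 genes. Further cytosolic translation factors and regulators fell for 16 of 31 in wild type cells (51.6%) and 13 in the mutant (41.9%). All genes gave 29.0% and 28.7% called lower. The median differences of this list were -0.11 and -0.09. ANB1, the second eIF5A gene, which is known from low-oxygen growth, fell by 0.60 (adjusted p = 1.63e-05) and 0.43 (adjusted p = 0.000348). TMA22, a ribosome-associated protein, fell by 0.44 and 0.33, and the prolyl-tRNA synthetase YHR020W by 0.48 and 0.37. The helicase gene DBP1, a paralog of DED1, rose by 0.30 (adjusted p = 0.00223) and 0.51 (adjusted p = 0.000212). TEF2, the GTPase eEF1A that carries charged tRNAs to the ribosome, had group means near 14.02 and medium differences of 0.01 in the wild type and of 0.02 in the mutant, and was not called. Its probe set carries the suffix for shared probes and TEF1 was not measured, so the value may hold signal of both. Its means were above the brightest 1% level of each array (at most 13.68), where signals can be compressed, and the part of brightness was not tested.

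Of the tRNA modification enzymes, 31 of 40 fell in wild type cells (77.5%) and 25 in the mutant (62.5%), beside 29.0% and 28.7% of all genes. Their median differences were -0.44 and -0.30. PUS4, a pseudouridine synthase, fell by 0.62 and 0.56, TYW3 of wybutosine synthesis by 0.63 and 0.78, and the methyltransferase TRM13 by 0.74 and 0.62. Chaperones of new proteins were lower for 11 of 13 in the wild type (84.6%) and 10 in mutant cells (76.9%). The prefoldin gene GIM4 was at -0.43 in both strains and SSZ1 of the ribosome-associated complex at -0.31 and -0.23.

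Of the mitochondrial synthetases and translation factors, FMT1 was at the background in every group. Among the other 24, 12 rose and 7 fell in wild type cells, 50% and 29.2%, beside 31.7% and 29.0% of all genes. In the mutant 8 rose and 7 fell, 33.3% and 29.2%, close to the 33.8% and 28.7% of all genes, and the medians over the 24 were 0.12 and 0.01. AIM23, the mitochondrial initiation factor, rose by 0.59 and 0.51, while MRF1, the mitochondrial release factor, fell by 0.43 and 0.40. MST1, the mitochondrial threonyl-tRNA synthetase, fell by 0.26 and 0.27.

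Between the strains, 2 of the 109 list genes were higher and 6 lower in the mutant without ethanol, 1.83% and 5.50%, and 6 were higher and 6 lower with ethanol, 5.50% each. All genes gave 8.26% and 8.07% in the first and 5.73% and 5.98% in the second. Without ethanol ANB1 was lower in the mutant, at -0.44 (adjusted p = 0.000911), and GCN20, TMA20 and MAP2 of the same list were lower, at -0.15 to -0.12. DED1, a helicase used in scanning, was higher by 0.18 (adjusted p = 0.00668) and DIA4, a mitochondrial seryl-tRNA synthetase, by 0.30 (adjusted p = 0.000868). The lower calls KTI12 and UBA4 came from the tRNA modification list, with differences of -0.23 and -0.15.

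With ethanol DED1 and DBP1 were higher in the mutant by 0.30 (adjusted p = 0.00306) and 0.42 (adjusted p = 0.00941), and ANB1 was lower, at -0.27 (adjusted p = 0.0302). DIA4, TRM9, UBA4 and BTT1 were higher, by 0.16 to 0.31. MEF2, AIM23, SLM5, TYW3 and GIM3 were lower, at -0.32 to -0.18. UBA4, which acts in thiolation of the tRNA wobble base, was the single gene of the 4 lists with a called interaction (0.33, adjusted p = 0.0469).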

How the data were processed

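Per the submitters' processing notes, the authors made the deposited intensity of each probe set and array with RMA. The sources used here do not give its version, its settings or a genome build. The linear intensities ran from 6.16 to 22228.3, and log2 was taken with no pseudocount. Of 10928 probe sets, 5498 matched single yeast genes of the RefSeq gene table, and where a gene had more than 1 (47 genes) the one with the highest mean was kept. The array titled an outlier was left out, which left 11.

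The comparisons used lmFit and eBayes of limma 3.58.1 under R 4.3.3 (1 mean per group, 7 residual and 2.73 prior degrees of freedom). Benjamini-Hochberg adjustment was over 5449 genes in each of the 5 comparisons. The fit was tried on simulated data for the medium comparison of the wild type alone, with far fewer changed genes than here. It recovered 72% of the genes given a change of 0.3. The other comparisons were not simulated. Gene pairs were compared by a two-sided exact permutation test over 200 arrangements, chosen after the values were seen. Per-array values are given for up to 4 called genes with the highest and up to 4 with the lowest change in each comparison and for the named pairs. From the other lists up to 4 called genes with the smallest p, and the genes of any count of 5 or fewer, are named, and values of SUI2 and of TEF2 were added after they were seen. The members and lists were chosen with earlier results of these data known. On the 11 arrays no gene of the 53 was at the background set by the 95th percentile of probe sets taken as Schizosaccharomyces pombe, on average 7.24. Alternatives were array weights, all 12 arrays, the replicate number as a block, other scalings, other limma settings, a filter on low genes and each array left out. Promoter and protein sequences were not used here.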

Additional observations from a re-analysis of the deposited data

How the results depend on the processing

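The medium calls kept their direction in every alternative in the wild type, and in mutant cells all but HCR1 and GCD14 did. In the alternatives call counts stayed near 42 in the wild type and 39 in mutant cells. The exception was all 12 arrays without weights, which left 1 and 8. Of the single calls, 36 of 42 and 22 of 39 were lost there and nowhere else, and 5 and 9 were lost elsewhere too or instead. Strain calls were few (3 and 3) and none was kept in every alternative. Without ethanol all 12 arrays gave 0, array weights 21, the trended robust limma fit 6 and the fit of only the groups compared 9. In the ethanol medium these gave 0, 1, 5 and 0, and the shares of all genes called under these fits are not given here. With array weights 2 interactions were called in place of 0. Leaving out each array in turn gave 0 to 5 and 0 to 6 strain calls, 38 to 43 and 31 to 39 medium calls and 0 to 1 interactions, where a group left with 1 array was assumed to vary like the others. With all 12 arrays the signs turned for DPS1 between the strains in the ethanol medium (-0.39) and for HCR1 (-0.38) and GCD14 (0.01) between the media in the mutant. HEF3 was not tested with the lowest 25% of genes left out. The replicate number as a block gave 4, 1, 43, 40 and 0 calls, and in the ethanol medium it ended those of DPS1 (0.0677) and SES1 (0.0623). Nothing in the labels ties the numbers to a shared day or batch. Deviations of same-numbered arrays correlated at -0.25 to 0.71, above 0.1 in 11 of 15 pairs, and 6 of 11 arrays were closest to their own number. The other 4 pairs all held a wild type array without ethanol, while the 7 pairs among the other groups correlated at 0.26 to 0.71. Differently numbered pairs of those groups ran from -0.63 to 0.48. Deviations from a group's mean cancel out within the group, so these correlations are not independent. They cannot decide whether the numbers go together. The cause of the changed counts was not tested.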

Other observations

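On the array titled an outlier, 52 of the 53 transcripts lay below both other arrays of the mutant in the ethanol medium, by a median of -0.87 from their mean, where the median over all genes was -0.82. The exception was GCD14, which read 12.03 against 10.83 and 10.54. The distance was greatest for TIF4632, at -2.03. The background set by the S. pombe probe sets was 10.78 on this array, against 7.10 to 7.36 on the others. TIF4632 (8.54) and HEF3 (8.31), among other members, lay below it there, so their distances are not read as transcript levels. The array's median level of the 53 transcripts was 11.35, and it correlated with the other arrays at 0.747 to 0.789.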
